A study of Mus musculus with 4 samples.

Results

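The Schlafen genes of the mouse were followed across the immune cells of 2153L mammary tumours under 4 treatments. The members were the rows of the deposited matrices whose symbol was Slfn1, Slfn2, Slfn3, Slfn4, Slfn5, Slfn8 or Slfn9, which made 7 of 32285 features. They were chosen by their summed UMI levels in marker-gated cells, which had been seen to differ between libraries, so the levels below are a description of those libraries and carry no test.

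Schlafen proteins share a core domain that binds and, in several members, cleaves RNA, with transfer RNA as the best studied target. Many of the genes are induced by type I interferon, and several human relatives restrict viruses. The short forms, Slfn1 and Slfn2, are known from T cells: Slfn1 slows thymocyte growth when overexpressed, and loss of Slfn2 function disturbs the quiescence of T cells and monocytes. Slfn3 and Slfn4 are of intermediate length, and Slfn4 is known from myeloid cells. Slfn5, Slfn8 and Slfn9 are the long forms and carry an additional helicase-like region.

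2153L is a mammary tumour of a genetically engineered mouse model, transplanted into female Balb/c mice, where it grew in the mammary fat pad. Treatment lasted 8 days and consisted of vehicle alone, of ORIN1001 (150 mg/kg), of docetaxel (20 mg/kg), or of both drugs at these doses, here called the combination. ORIN1001 blocks the RNase of IRE1α, a sensor of stress in the endoplasmic reticulum, and docetaxel is a taxane that stabilises microtubules. CD45+ cells were sorted and profiled by droplet-based 10x 3′ sequencing in 4 libraries, 1 for each group. How many mice contributed to each is unknown here. No spread between animals was therefore measurable, and every 95% interval below covers counting error only.

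The libraries held 8464 to 10362 barcodes and 64257802 to 86383509 UMIs, and 7786 to 9400 cells were kept in each. Between 96 and 134 barcodes were shared by any pair of libraries, at most 1.52% of a library. Cells were placed in classes from marker genes: neutrophil-like (3261 to 5603 cells a library), macrophage-like (1020 to 2233), T cell-like (918 to 2284), monocyte-like (139 to 246), dendritic cell-like or DC-like (60 to 194) and NK cell-like (88 to 194). A cluster of 262 cells with Epcam, Krt18 and Krt8 among its leading genes had passed the CD45 sort. Neutrophil-like cells differed between libraries in more than the members: the median UMIs of a cell were 2908 (vehicle), 3471 (ORIN1001), 2531 (docetaxel) and 2208 (combination), and the 8 neutrophil markers summed to 77686, 88375, 42021 and 35893 CPM. CPM is the count of a gene per 1000000 UMIs of its class in a library. The part of these differences in the levels of the members was not tested.

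All 7 genes lie in a cluster on chromosome 11 of mm10 between 82951349 and 83215154. Slfn8 and Slfn9 are on the minus strand and the other 5 on the plus strand. Reads were taken near the 3′ end of transcripts, so sequence shared there could mix members: of the 60-base windows in the last 500 bases of the longest transcript, 3.63% of those of Slfn3 also occurred in Slfn4, 0.907% of those of Slfn8 in Slfn9, and none of those of Slfn1, Slfn2, Slfn4, Slfn5 and Slfn9 in another Schlafen gene. The pseudogene Slfn10-ps shared 13.4% of its windows, most with Slfn8, and was not analysed here. Slfn5os, which overlaps Slfn5 on the opposite strand, had 28 to 61 UMIs in neutrophil-like cells.

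Promoter windows of RefSeq on GRCm38.p6, from 250 bases before to 50 bases after the start, were matched for all 7 members, with 2 windows for Slfn8. Those of Slfn5, Slfn8 (1 of them), Slfn9 and Slfn4 are printed because they hold the motif matches, shown in capitals, and because those of Slfn8 and Slfn9 resemble each other. They are chr11:82951852-82952151 on the plus strand for Slfn5, chr11:83020761-83021060 on the minus strand for Slfn8, chr11:82991781-82992080 on the minus strand for Slfn9 and chr11:83174936-83175235 on the plus strand for Slfn4.
Slfn5: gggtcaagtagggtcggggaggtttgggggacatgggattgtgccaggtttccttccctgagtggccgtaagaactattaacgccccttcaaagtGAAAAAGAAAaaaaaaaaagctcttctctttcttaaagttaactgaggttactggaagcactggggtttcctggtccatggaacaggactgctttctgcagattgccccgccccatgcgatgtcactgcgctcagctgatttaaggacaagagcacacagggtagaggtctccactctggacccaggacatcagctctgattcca
Slfn8: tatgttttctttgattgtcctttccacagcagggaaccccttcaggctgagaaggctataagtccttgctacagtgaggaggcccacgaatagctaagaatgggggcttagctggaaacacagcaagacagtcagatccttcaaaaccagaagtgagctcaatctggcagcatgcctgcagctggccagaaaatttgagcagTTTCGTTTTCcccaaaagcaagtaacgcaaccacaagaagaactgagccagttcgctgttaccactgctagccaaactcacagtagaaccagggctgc
Slfn9: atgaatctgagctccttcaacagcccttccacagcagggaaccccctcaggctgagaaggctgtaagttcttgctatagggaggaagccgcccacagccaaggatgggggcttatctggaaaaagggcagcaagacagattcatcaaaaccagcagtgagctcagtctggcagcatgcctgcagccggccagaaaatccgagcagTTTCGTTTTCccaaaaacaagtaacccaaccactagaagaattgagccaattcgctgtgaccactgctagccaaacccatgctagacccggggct
Slfn4: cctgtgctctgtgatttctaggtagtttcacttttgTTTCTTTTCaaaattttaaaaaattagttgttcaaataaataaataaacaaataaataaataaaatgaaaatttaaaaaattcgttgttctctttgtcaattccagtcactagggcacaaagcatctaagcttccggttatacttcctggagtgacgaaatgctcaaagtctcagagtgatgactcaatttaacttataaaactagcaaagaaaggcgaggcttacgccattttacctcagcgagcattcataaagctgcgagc

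The search covered 5 motifs on both strands. The core of the interferon-stimulated response element, read as GAAA, any 2 bases and GAAA, was found in Slfn5, where the match ended 145 bases before the start, and on the opposite strand in Slfn8 (38 bases before) and Slfn9 (35 bases before). The other window of Slfn8 holds the same match, 126 bases before its start. This motif occurred in 3.44% of the 32851 promoter windows of all genes and in none of those of Slfn1, Slfn2, Slfn3 and Slfn4. GAAANGAAA, with the same elements 1 base closer, matched in Slfn4 alone of the members, 205 bases before the start, and in 3.17% of all windows. TTCNNNGAA, the core of the gamma-activated site, matched in no member and in 8.30% of all windows. The purine-rich motif GAGGAAGT and its longer form, with an A before and a G after it, matched in no member, against 3.202% and 0.426% of all windows. The windows of Slfn8 and Slfn9 were identical at 246 of 305 aligned positions, or 80.7%, while no other pair of different members exceeded 50.6%.

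Each member had its own order of classes. Slfn1 was highest in neutrophil-like cells in every library, at 520 (vehicle), 720 (ORIN1001), 1113 (docetaxel) and 1507 CPM (combination). Monocyte-like, T cell-like, DC-like, macrophage-like and NK cell-like cells followed in the same order in all 4 libraries, with no overlap between neighbouring intervals. At the low end, NK cell-like cells held 2 to 9 Slfn1 UMIs a library, or 1.9 to 6.3 CPM. Slfn2 was also highest in neutrophil-like cells, with 695, 869, 1128 and 1375 CPM in the order vehicle, ORIN1001, docetaxel and combination, which is the order used for every set of 4 values below. Unlike Slfn1, Slfn2 was well measured in NK cell-like cells, at 128, 170, 233 and 258 CPM, and its intervals there overlapped those of macrophage-like cells.

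Slfn4 showed the steepest step from its highest class. Neutrophil-like cells had 1352, 1601, 2165 and 2632 CPM, which was 5.75 to 12.95 times the level in monocyte-like cells, the next class in all 4 libraries. With each cell thinned to 1000 UMIs, 49.4%, 57.6%, 63.7% and 68.7% of neutrophil-like cells had a Slfn4 UMI, against 0 of 131, 0 of 89, 1.14% and 1.03% of NK cell-like cells. At 3 counts of the cells, those zeros allow shares of up to 2.29% and 3.37% of cells with a UMI at this depth, for counting error only, and set no limit on cells expressing the gene. Without thinning, 68.6% of the neutrophil-like and 1.52% of the NK cell-like cells of vehicle had a Slfn4 UMI, at median depths of 2908 and 8300 UMIs. Slfn3 was scarce everywhere, at 0 to 5.5 CPM in the classes other than T cell-like cells, where it reached 7.3 CPM in docetaxel, and most neighbouring classes overlapped in its order.

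Among the long forms, Slfn5 was highest in monocyte-like cells of vehicle and in neutrophil-like cells of the other 3 libraries, where the intervals of both classes overlapped in ORIN1001. Its neutrophil-like levels were 217, 272, 514 and 586 CPM, and in NK cell-like cells it had 2 to 21 UMIs a library. Slfn8 was highest in neutrophil-like cells, with 79.8, 130, 208 and 258 CPM, and overlapped monocyte-like cells in vehicle. Slfn9 had no stable order: NK cell-like cells were highest in vehicle and ORIN1001, neutrophil-like cells in docetaxel and the combination, and neighbouring intervals overlapped throughout except between neutrophil-like and macrophage-like cells in docetaxel.

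**Figure D1:**
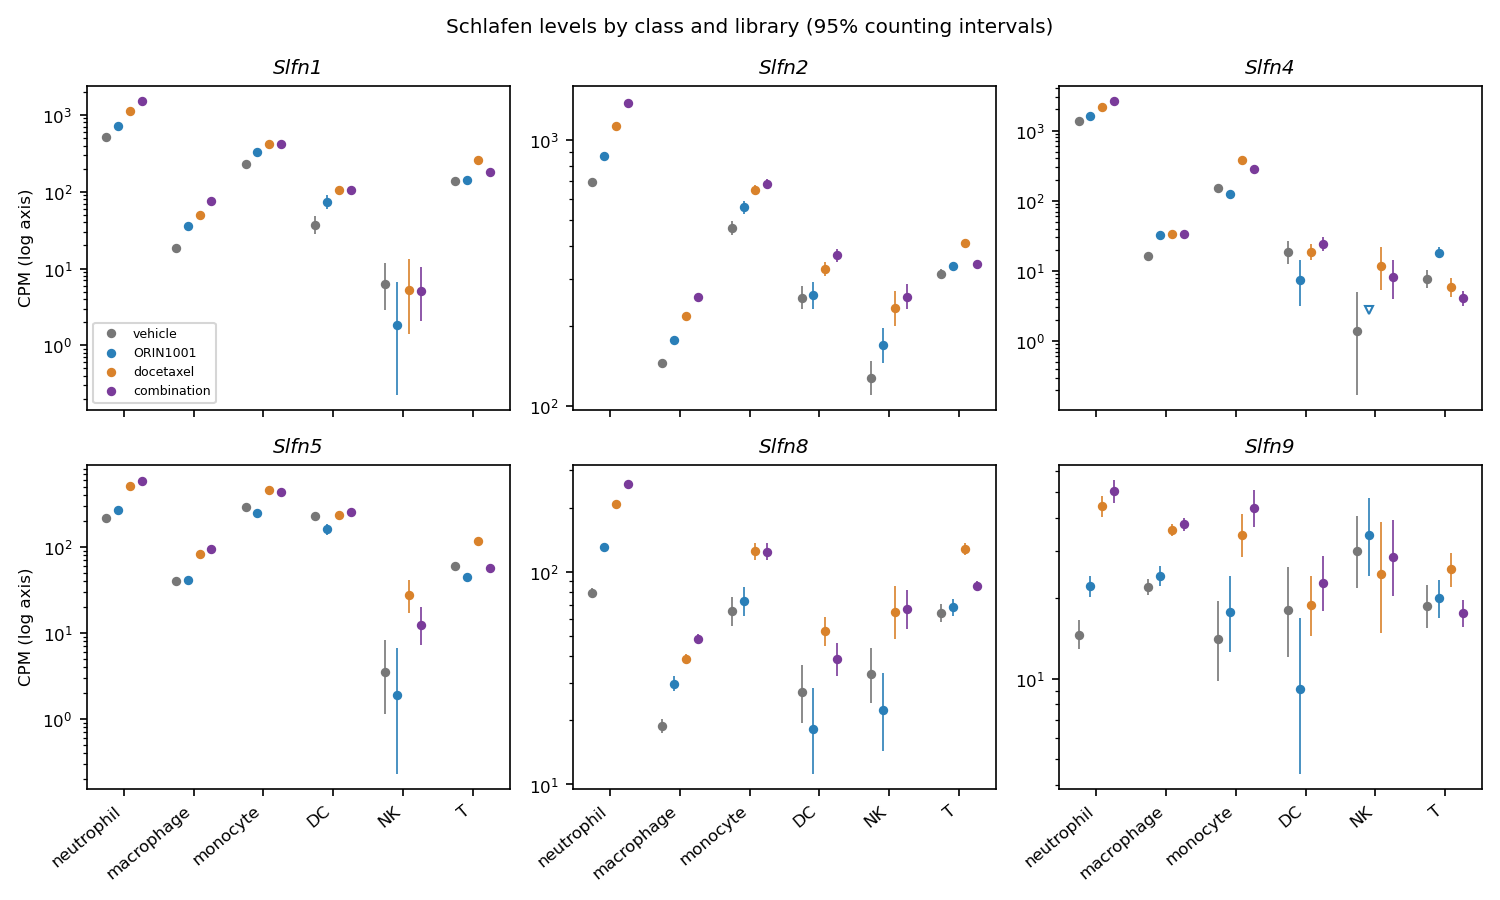
Levels of 6 Schlafen genes in CPM (log axis) by class, with 1 point for each library and 95% counting intervals; open triangles stand at the limit of 3 counts where no UMI was found. Slfn1, Slfn2 and Slfn4 are highest in neutrophil-like cells in all 4 libraries, and Slfn1 is lowest in NK cell-like cells.

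In neutrophil-like cells, all 6 members with at least 30 UMIs stood in the same order: vehicle lowest, then ORIN1001, docetaxel and the combination. The share of all genes in that order was not computed. Median log2 ratios to vehicle over all genes were -0.092 (ORIN1001), 0.097 (docetaxel) and -0.0003 (combination). A member was counted as past 1.5-fold when the ratio of CPM between 2 libraries was at least 1.5 and the higher library had at least 30 UMIs. Between ORIN1001 and vehicle, 2 of 6 were past 1.5-fold higher, beside 3.72% of 9967 genes: Slfn8, with a log2 ratio of 0.71 (95% interval 0.62 to 0.80), and Slfn9, with 0.60 (0.38 to 0.82). The other 4 were higher by 0.24 to 0.47 on the log2 scale. Slfn3, with 7 to 27 UMIs, was not counted.

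Between docetaxel and vehicle, 6 of 6 members were past 1.5-fold higher in neutrophil-like cells, beside 9.41% of 9589 genes. The long forms had the largest ratios, with log2 values of 1.595 (1.38 to 1.82) for Slfn9, 1.38 (1.28 to 1.48) for Slfn8 and 1.24 (1.18 to 1.30) for Slfn5. Slfn1 had 1.10 (1.06 to 1.14), and Slfn2 and Slfn4 had 0.70 and 0.68. Between the combination and vehicle, 6 of 6 were again past 1.5-fold, beside 14.1% of 9309 genes, from 0.96 for Slfn4 to 1.78 for Slfn9. The combination exceeded docetaxel for all 6, by 0.19 to 0.44, and 0 of 6 were past 1.5-fold, beside 4.9% of genes. The interval for Slfn9 included 0 in that comparison. Against ORIN1001, the combination was past 1.5-fold higher for 6 of 6, beside 18.6% of genes. Comparisons with vehicle share 1 library, so their likeness is no separate evidence.

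Macrophage-like cells held most members at lower levels, and the combination was highest for each. For Slfn3, Slfn4 and Slfn9 the intervals of the combination and docetaxel overlapped. Not every cluster of these cells showed the same direction, as given below. Slfn1 was at 18.6, 35.4, 50.2 and 76.2 CPM, a log2 ratio of combination to vehicle of 2.03 (1.91 to 2.16). Slfn2 was at 146, 177, 219 and 258 CPM, Slfn5 at 39.99, 41.3, 82.3 and 93.9, and Slfn8 at 18.8, 29.8, 39.0 and 48.3. The ORIN1001 library thus stood near vehicle for Slfn5 (log2 0.05, -0.07 to 0.17) and above it for Slfn1 and Slfn8. Past 1.5-fold higher were 3 of 7 members for ORIN1001 to vehicle (beside 4.99% of genes), 5 of 7 for docetaxel to vehicle (4.11%) and 7 of 7 for the combination to vehicle (6.51%). Between combination and docetaxel 1 of 7 was, Slfn1 (3.48%), and between combination and ORIN1001 4 of 7 were (4.45%).

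Slfn4 in macrophage-like cells was at 16.2 CPM in vehicle and 32.6, 33.0 and 33.6 in the 3 treated libraries. The log2 ratio of ORIN1001 to vehicle was 1.01, and -0.0503 when taken as a mean over cells. Under the alternatives of the closing section, docetaxel to vehicle fell as low as 0.39 (1.02 as reported). Combination to vehicle fell as low as 0.26 for Slfn4 (1.05 as reported) and 0.26 for Slfn3 (0.70 as reported). These ratios kept their sign but did not stay past 1.5-fold. Neutrophil markers in these cells summed to 427, 1053, 171 and 90.6 CPM. If Slfn4 had come from free neutrophil RNA in proportion to S100a8 and S100a9, the levels would have been 5.61, 15.3, 5.79 and 3.62 CPM in the 4 libraries. This assumes a fixed ratio, and the part of free RNA in the measured levels was not tested.

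In monocyte-like cells, 0, 5 and 4 of 6 members were past 1.5-fold higher for ORIN1001, docetaxel and combination to vehicle, beside 5.36%, 6.26% and 8.84% of genes. Slfn4 had a docetaxel ratio of 1.32 (1.15 to 1.49) and was lower in the combination than in docetaxel by 0.42 on the log2 scale. Neutrophil markers in monocyte-like cells summed to 2084, 2362, 1047 and 461 CPM. The part of free neutrophil RNA in their Slfn4 was not tested. Macrophage markers in them summed to 5217, 4597, 3928 and 2868 CPM, beside 5526, 6090, 5474 and 6197 for monocyte markers. In DC-like cells the counts were 1 of 4, 2 of 6 and 1 of 6, beside 6.03%, 11.2% and 10.7%. Slfn1 was past 1.5-fold in each of these 3 and Slfn8 in docetaxel, while Slfn5 was lower in ORIN1001 than in vehicle by 0.52. In NK cell-like cells the counts were 0, 2 and 2 of 3, beside 4.09%, 6.49% and 9.58%. Slfn2 and Slfn8 were those higher, with log2 ratios of docetaxel to vehicle of 0.86 and 0.98, and Slfn9 was not, at -0.29 (-1.15 to 0.52).

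In T cell-like cells the combination was not the highest library for any member, unlike in neutrophil-like cells for the 6 members counted there and in macrophage-like cells for all 7. Slfn1 was at 140, 140, 256 and 182 CPM, and Slfn5 at 60.2, 44.1, 117 and 56.8. Slfn8 was at 63.7, 67.9, 128 and 85.8 CPM, and Slfn2 at 314, 335, 408 and 342. Docetaxel was thus highest for each of these 4 genes. For docetaxel to vehicle, 4 of 7 members were past 1.5-fold higher, beside 7.95% of genes: Slfn1 (0.88, 0.76 to 0.99), Slfn3 (1.10, 0.36 to 1.89), Slfn5 (0.96, 0.79 to 1.14) and Slfn8 (1.004, 0.84 to 1.17). For the combination to docetaxel, 7 of 7 ratios were below 1 and 2 of 7 past 1.5-fold lower, beside 5.51% of genes: Slfn5 (-1.05, -1.18 to -0.91) and Slfn3 (-1.11, -1.68 to -0.54). The share of all genes below 1 in that comparison was not computed, and their median log2 ratio was 0.019. Slfn4 was the 1 of 7 members past 1.5-fold higher for ORIN1001 to vehicle (beside 7.06%) and the 1 of 6 past 1.5-fold lower for the combination to vehicle (beside 5.83%), where its log2 ratio of -0.92 became 1.20 under a stricter gate and 0.75 as a mean over cells, and where the count became 0 with Scrublet's automatic threshold or without doublet removal. It was also the 1 of 7 past 1.5-fold lower for the combination to ORIN1001 (beside 3.91%). Its levels of 7.7, 18.2, 5.9 and 4.1 CPM stood beside 5.52, 10.1, 6.19 and 3.04 CPM for free neutrophil RNA alone, under the same fixed ratio to S100a8 and S100a9, and the part of free RNA in them was not tested.

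**Figure D2:**
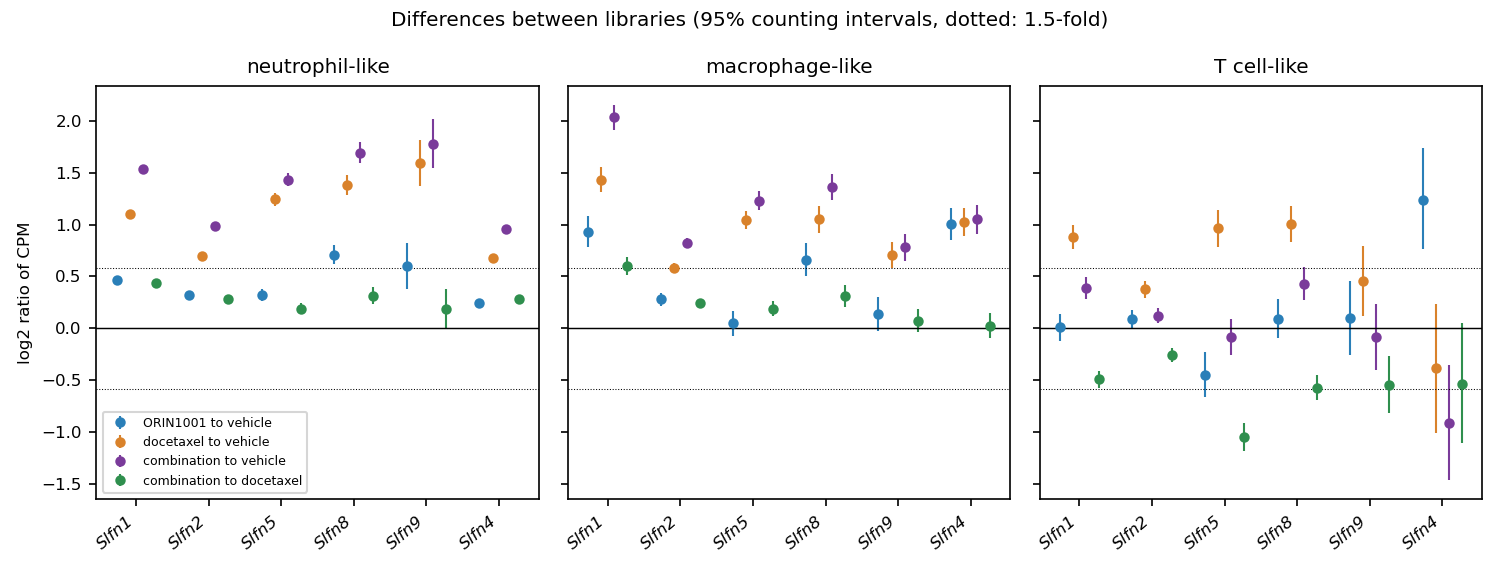
Log2 ratios of CPM between libraries for 6 Schlafen genes in 3 classes, with 95% counting intervals and dotted lines at 1.5-fold. In T cell-like cells the combination to docetaxel ratios lie below 0, and in neutrophil-like cells they lie above it, with an interval for Slfn9 that reaches 0.

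Within neutrophil-like, macrophage-like, monocyte-like and T cell-like cells, most members went with the interferon-stimulated content of the cell. Each cell was thinned to 1000 UMIs and placed by its UMIs of 22 type I interferon-stimulated genes. Cells with 3 or more made up 49.5%, 72.0%, 73.5% and 91.0% of neutrophil-like cells. Slfn4 was at 2148, 1975, 2714 and 2808 CPM in those cells and at 337, 319, 265 and 250 CPM in cells with none. Slfn5 was 8.16 to 12.95 times higher in the former, Slfn1 3.49 to 4.13 times and Slfn2 2.27 to 3.24 times. The combination had 63 neutrophil-like cells without such UMIs, so its low bin is imprecise. Bins and members were read from the same cells, so this is a description.

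Within these bins, the difference between docetaxel and vehicle was smaller for Slfn4. In cells without interferon-stimulated UMIs its log2 ratio was -0.35 (-0.54 to -0.16), and in cells with 3 or more it was 0.34 (0.31 to 0.36), against 0.68 over all neutrophil-like cells. Slfn1 kept ratios of 0.64, 0.70 and 0.83 in the low, middle and high bins, against 1.10 over all. For ORIN1001 to vehicle, Slfn4 and Slfn5 were lower in the high bin, by 0.12 and 0.11, while both were higher over all cells. The share of cells in the high bin differed between these libraries as given above.

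**Figure D3:**
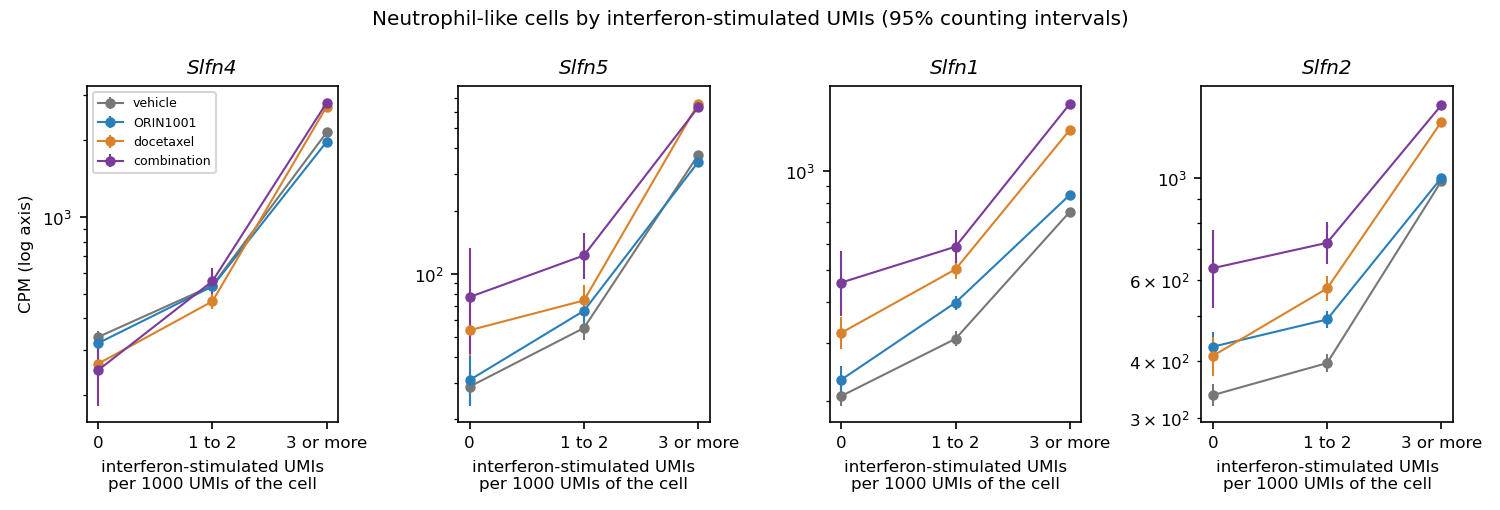
Levels of 4 Schlafen genes in CPM (log axis) in neutrophil-like cells with 0, 1 to 2, or 3 or more interferon-stimulated UMIs per 1000, with 1 line for each library and 95% counting intervals. All lines rise from left to right, most steeply for Slfn5 and Slfn4.

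In T cell-like cells, Slfn1 was at 61.4, 74.8, 57.0 and 78.5 CPM without interferon-stimulated UMIs and at 380, 356, 479 and 408 CPM with 3 or more. In macrophage-like cells it was at 2.9, 8.5, 5.1 and 15.04 against 76.8, 109, 102 and 133 CPM. Slfn9 was at 16.1, 21.3, 25.8 and 26.9 CPM against 38.9, 35.8, 49.0 and 46.1 in macrophage-like cells. Among neutrophil-like cells Slfn9 was 11.8, 9.54, 29.0 and 3.03 times higher in the high bin. The low bin held 2 to 8 Slfn9 UMIs a library, and the intervals of the log2 ratio ran from 2.999 to 7.91 in docetaxel and from 0.04 to 3.88 in the combination. In T cell-like cells of docetaxel the interval of the Slfn9 log2 ratio between the bins, 0.35 (-0.16 to 0.86), included 0. So did that of Slfn9 in monocyte-like cells of the combination, 1.34 (-0.05 to 3.23). Slfn3 in macrophage-like cells had 0.54 (-0.25 to 1.39) in docetaxel and 0.85 (-0.15 to 1.99) in the combination. Its ratio in T cell-like cells of docetaxel was 2.39 (1.05 to 4.09).

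Clusters made without the Schlafen genes split the neutrophil-like cells into 6, numbered 0 to 5. Slfn4 was highest in cluster 2, led by Rsad2, Ifit1 and Cxcl10, at 4143, 4252, 4896 and 5415 CPM. It was lowest in cluster 1, led by Il1b and holding Siglecf among its leading genes, at 340, 377, 474 and 519 CPM. Slfn9 was concentrated further, with 155, 182, 188 and 181 CPM in cluster 2 and at most 35.3 in any other. Docetaxel exceeded vehicle in all 6 clusters for Slfn1, Slfn2, Slfn4, Slfn5 and Slfn8, by 0.55 to 1.01 on the log2 scale for Slfn1 and by 0.24 to 0.89 for Slfn4. ORIN1001 exceeded vehicle in 6 of 6 clusters for Slfn8 and in the 4 of 4 compared for Slfn9, and in 5 of 6 for Slfn1, Slfn2, Slfn4 and Slfn5. In cluster 3, led by Cxcl2, Slfn4 was at 1422 CPM in ORIN1001 and 2042 in vehicle. The clusters held unequal numbers of cells, with 61 neutrophil-like cells of the combination and 1740 of ORIN1001 in cluster 5. The combination exceeded docetaxel for Slfn5 in 3 of 6 clusters, from -0.23 to 1.34 on the log2 scale. Among macrophage-like clusters compared, it exceeded vehicle in 4 of 4 for Slfn1 and Slfn8, 4 of 5 for Slfn2 and 3 of 4 for Slfn5. For Slfn4 and Slfn9 it did in 2 of 4, and for Slfn3 in 0 of 2. It exceeded ORIN1001 for Slfn4 in 0 of 3, from -1.13 to -0.57. It exceeded docetaxel in 4 of 5 for Slfn2, 3 of 4 for Slfn1 and Slfn8, and 2 of 4 for Slfn4 and Slfn5. For Slfn9 it did in 1 of 4, and for Slfn3 in 0 of 2. Macrophage-like cluster 6 held 1337 cells of vehicle and 159 of the combination. The part of such make-up in the class levels was not tested.

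**Figure D4:**
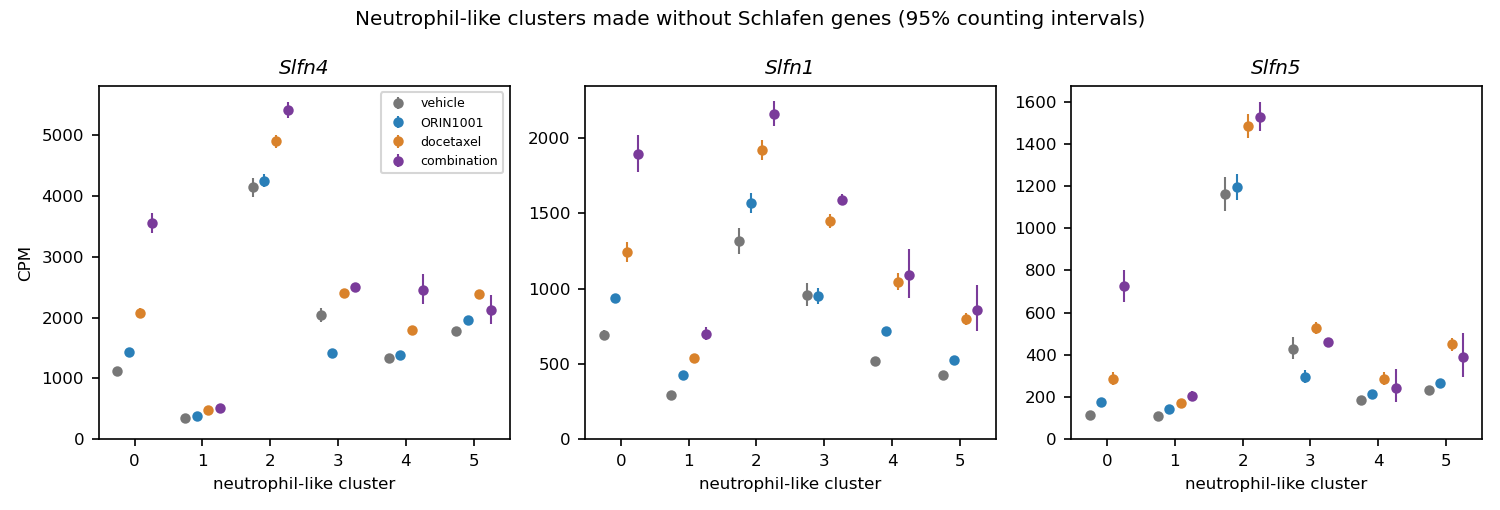
Levels of Slfn4, Slfn1 and Slfn5 in CPM in the 6 neutrophil-like clusters, with 1 point for each library and 95% counting intervals. Cluster 2 is highest for all 3 genes in every library and cluster 1 is low throughout.

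T cell-like cells were also split by the UMIs they held. The marks were Cd8a or Cd8b1, Cd4, Foxp3 and Trdc. A subset left out cells with UMIs of another mark, except that Foxp3 cells could hold Cd4 UMIs. The subset with UMIs of Cd8a or Cd8b1, the CD8 coreceptor genes, numbered 375 of 990, 445 of 918, 544 of 1076 and 1328 of 2284 cells. The make-up of the class thus differed between libraries. Its part in the levels of the whole class was not tested. Slfn5 in them was at 62.6, 28.0, 103 and 33.3 CPM, a log2 ratio of combination to docetaxel of -1.63 (-1.84 to -1.42). In cells with UMIs of Foxp3, the regulatory T cell factor, Slfn5 was at 49.0, 64.9, 148 and 123 CPM, with a ratio of -0.27 (-0.59 to 0.05). Slfn1 had ratios of -0.67 (-0.78 to -0.57) in Cd8a or Cd8b1 cells and -0.18 (-0.44 to 0.07) in Foxp3 cells. The difference between these subsets was not tested. In cells with Trdc, a γδ T cell receptor gene, Slfn1 was at 23.2, 27.7, 51.0 and 50.8 CPM, the lowest of these subsets in every library. Slfn2 was at 237, 401, 334 and 440 in them. Unlike in the other subsets, Slfn5 was higher in the combination than in docetaxel in Trdc cells, at 1.01 (0.18 to 1.92). Slfn8 there had 0.82 (0.04 to 1.65).

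Dividing T cell-like cells were separated by 10 proliferation genes. Slfn1 was at 99.6, 81.3, 146 and 94.1 CPM in cells with 2 or more proliferation UMIs and at 150, 174, 321 and 256 in cells with none. Slfn2 was 1.57 to 1.997 times higher and Slfn5 1.71 to 4.37 times higher in cells with none. Slfn8 was 1.07 to 2.21 times higher in cells with none, with an interval for the ratio that included 0 in vehicle. Slfn3, Slfn9 and Slfn4 differed from these. Slfn3, on 9 to 26 UMIs, was at 4.9, 4.4, 9.3 and 3.6 CPM in cells with 2 or more against 2.8, 2.8, 6.4 and 3.3. Slfn9 was at 33.9, 23.2, 31.5 and 23.3 CPM against 12.7, 15.5, 23.7 and 12.9, with an interval for the ratio that included 0 in docetaxel. Slfn4 was at 19.6 and 31.8 CPM in cells with 2 or more proliferation UMIs of vehicle and ORIN1001, against 1.9 and 4.6 in cells with none, and at 3.6 and 3.9 against 7.9 and 5.4 in docetaxel and the combination. In the combination the interval of the Slfn4 log2 ratio, -0.45 (-1.22 to 0.30), included 0. The 195 cells of ORIN1001 with 2 or more proliferation UMIs held 100 of the 137 Slfn4 UMIs of its T cell-like cells. These cells were not thinned, so deeper cells reach 2 proliferation UMIs more easily. The combination to docetaxel ratio of Slfn1 was -0.33 (-0.44 to -0.21) in cells with no proliferation UMI.

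**Figure D5:**
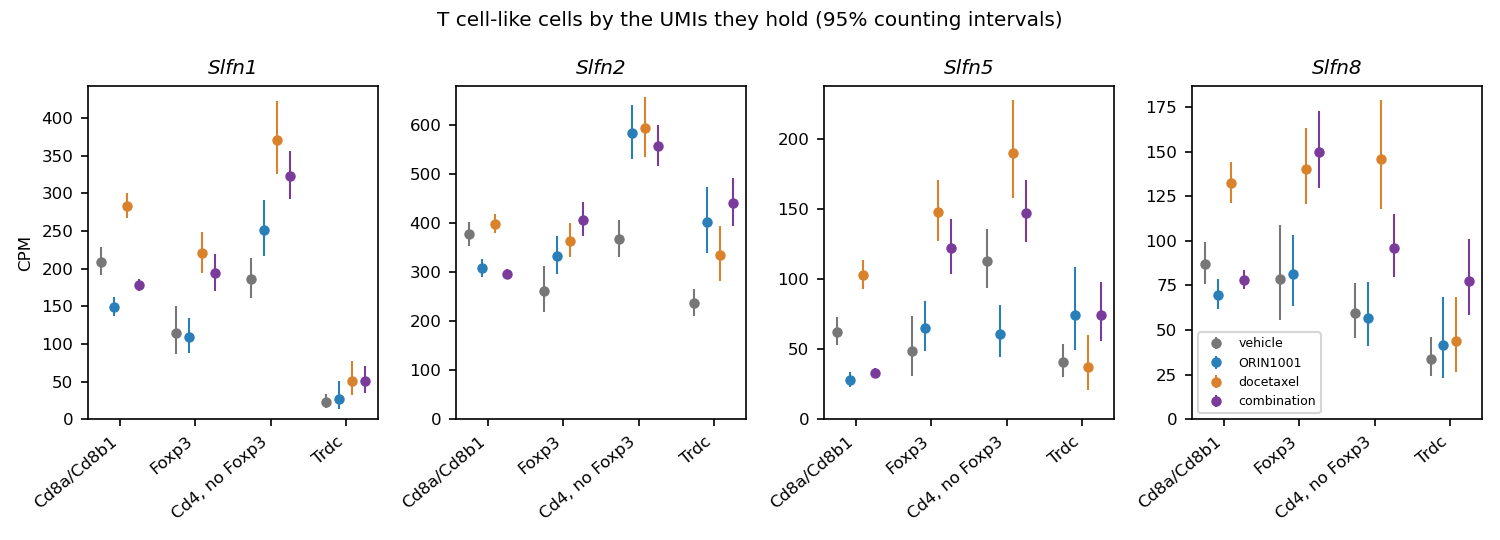
Levels of 4 Schlafen genes in CPM in T cell-like cells by the UMIs they hold, with 1 point for each library and 95% counting intervals. A subset leaves out cells with UMIs of another mark, except that Foxp3 cells may hold Cd4 UMIs. Docetaxel stands above the combination in Cd8a/Cd8b1 cells for all 4 genes, and Trdc cells are lowest for Slfn1.

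The interferon lists stood beside the members as follows. In neutrophil-like cells, 8 of 22 type I interferon-stimulated genes were past 1.5-fold higher in ORIN1001, 22 of 22 in docetaxel and 21 of 22 in the combination, beside 3.72%, 9.41% and 14.1% of all genes, with median log2 ratios to vehicle of 0.48, 1.07 and 1.32. The members' medians were 0.40, 1.17 and 1.48. Interferon-gamma response genes had medians of 1.26, 1.42 and 2.65, led in the combination by Gbp4 (4.58), a guanylate-binding protein. The signalling chain had 3, 5 and 6 of 12 higher, beside the same shares. In T cell-like cells the type I list had medians of -0.30, 1.004 and 0.20, and 18 of 22 genes were past 1.5-fold lower in the combination than in docetaxel, beside 5.51% of all genes, with a median of -0.78, beside -0.54 for the 7 members. Of the RNA-restricting effectors, such as the oligoadenylate synthetases, 4 of 12 were past 1.5-fold lower there (beside 5.51%) and none higher (beside 3.18%). Among 10 quiescence genes, 2 were past 1.5-fold lower in that comparison, beside 5.51% of all genes, Klf2 (-0.71) and Btg2 (-0.62). Among 10 proliferation genes none passed in either direction, beside 8.69% of all genes.

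The genes most like each member were found by Pearson's r of log2(CPM + 10) over the 24 values of 6 classes in 4 libraries, among 6350 genes. The members were barred from being named, so likeness between members was not ranked. Values of a library share its depth, and those of a class its cells. Slfn4 was closest to Trem3 (0.986), Fpr2 (0.985) and Id1 (0.982). Slfn5 was closest to Irf7 (0.940), Ube2l6 (0.9295) and Parp12 (0.926), and Slfn8 to Xaf1 (0.948), Parp14 (0.922) and Oas3 (0.920). Slfn2 was closest to N4bp1, Parp14 and H2-T24, at 0.952 to 0.953, and Slfn1 to Pik3c2a (0.923), Ifit1 (0.919) and Atrnl1 (0.917). Slfn9 and Slfn3 had no neighbour outside the members above 0.760 and 0.767, Gbp3 and Setdb2.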

How the data were processed

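The authors deposited raw UMI counts per gene and barcode for 4 libraries, called as cells by Cell Ranger 5.0.1, per the file headers. The submitters' processing notes name mm10 and Seurat 4.0.1, and the annotation release is not named in the labels or headers. From the deposited counts, barcodes with at least 200 genes and under 10% mitochondrial UMIs were kept, and the highest Scrublet scores (scanpy 1.11.5) were removed at 0.8% per 1000 cells in every library, since Scrublet's automatic threshold marked 0% of ORIN1001 and 1.27% to 2.002% elsewhere. Each cell went to the class with the highest marker score if that score reached 0.15 and at least 3 markers were detected. UMIs were summed by class and library and given as CPM, with exact 95% intervals for the ratio of 2 Poisson counts. PCR duplicates are removed by UMIs, yet intervals cover counting error only, and with 1 library per group no test was run and no p-value is given. The ratio script was tested on simulated data. Libraries held 64257802 to 86383509 UMIs. Clusters used 2000 variable genes without Schlafen genes, 30 components, 15 neighbours and resolution 1. Gene models came from GENCODE M21.

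The members and lists were chosen with earlier results of these data known, and the marker score and its limits, the motifs, the split of T cell-like cells and bins, and the limits for the differences in direction listed in the closing section were set with the data in hand. All 7 members were described in every class. From each list, counts, medians and up to 3 genes with the largest ratios were eligible for naming. For each member, so were the 3 genes outside the members with the highest r and a mean of at least 20 CPM. The alternatives are those of the closing section.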

Additional observations from a re-analysis of the deposited data

Results flagged for a closer look

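Several members moved in opposite directions in 2 of the 3 largest classes, with both intervals leaving out 0 and a gap of at least 1.5-fold. These limits were set after the ratios had been seen, and the differences were not tested, since each group had 1 library. For the combination to docetaxel, the log2 ratio in neutrophil-like cells minus that in T cell-like cells was 0.928 for Slfn1, 1.235 for Slfn5 and 0.891 for Slfn8. Macrophage-like minus T cell-like cells gave 1.093 for Slfn1, 1.235 for Slfn5 and 0.886 for Slfn8. As whole classes, T cell-like cells were lower in the combination for each gene, and neutrophil-like and macrophage-like cells higher. Cd8a or Cd8b1 cells and Cd4 cells without Foxp3 were also lower for each gene. The Cd4 interval for Slfn1 included 0. In Foxp3 cells every interval included 0. Trdc cells were higher for Slfn5, at 1.01 (0.18 to 1.92), and for Slfn8, at 0.82 (0.04 to 1.65). For Slfn1 they stood at -0.007 (-0.81 to 0.83). Within macrophage-like clusters, the combination exceeded docetaxel in 3 of 4 for Slfn1 and Slfn8, and in 2 of 4 for Slfn5, from -0.47 to 0.21. Within neutrophil-like clusters it did in 6 of 6 for Slfn1, 5 of 6 for Slfn8 and 3 of 6 for Slfn5. Monocyte-like cells of the combination and docetaxel stood at 419 and 417 CPM for Slfn1 and 434 and 464 for Slfn5. For Slfn8 they stood at 124 and 124. The type I interferon-stimulated genes of T cell-like cells were lower as well (18 of 22 past 1.5-fold, beside 5.51% of all genes). For ORIN1001 to vehicle, Slfn5 differed by 0.772 between neutrophil-like (0.32) and T cell-like cells (-0.45).

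Slfn4 gave the widest gaps. Neutrophil-like minus T cell-like cells came to 2.87 for the combination to ORIN1001 and 1.876 for the combination to vehicle, and macrophage-like minus T cell-like cells to 1.965 for the latter. Slfn4 in T cell-like cells rested on 43 to 137 UMIs a library, at 7.7, 18.2, 5.9 and 4.1 CPM. Without thinning, these UMIs lay in 1.41%, 3.70%, 2.14% and 2.15% of 990, 918, 1076 and 2284 cells. The intervals count each UMI as independent and do not cover the gathering of UMIs in few cells. Free neutrophil RNA alone, at a fixed ratio to S100a8 and S100a9, would give Slfn4 levels of 5.52, 10.1, 6.19 and 3.04 CPM. The part of free RNA was not tested. Its T cell-like ratio of combination to vehicle changed sign under other settings, as given in the next section.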

How the results depend on the processing

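Ratios to vehicle and of the combination to docetaxel were recomputed under 8 alternatives, or 9 in DC-like cells, where plasmacytoid cells were also joined. Counts of members to vehicle had the minimum of 10 UMIs in addition, and combination to ORIN1001 was not recomputed. The counts of members in this section include those past 1.5-fold in either direction. Of 55 ratios past 1.5-fold, 53 kept their sign and 41 stayed past 1.5-fold under every alternative run for them, and 144 of 165 alternative counts of members stayed within 1.5 times the reported count. Slfn4 reversed: for ORIN1001 to vehicle in macrophage-like cells it was -0.0503 as a mean over cells (1.01 as reported), and for combination to vehicle in T cell-like cells 1.20 under the stricter gate and 0.75 as a mean over cells (-0.92 as reported). For ORIN1001 to vehicle, the neutrophil-like count of 2 became 1 with Scrublet's automatic threshold (the rate rule kept for ORIN1001), with clusters in place of the gate and under 5% mitochondrial UMIs. The macrophage-like count of 3 became 1 as a mean over cells, and the monocyte-like count of 0 became 1 with at least 10 UMIs. The DC-like count of 1 became 3 with the automatic threshold or at least 10 UMIs, and 2 with clusters, size factors, under 5% mitochondrial UMIs or plasmacytoid cells joined. The members added at 10 UMIs were lower in ORIN1001 than in vehicle: Slfn4 (7.3 against 18.7 CPM) and Slfn9 (9.1 against 18.1 CPM). The NK cell-like count of 0 became 1 with the automatic threshold, the stricter gate or a mean over cells. The T cell-like count of 1 became 0 with the automatic threshold and 2 as a mean over cells. For the combination to vehicle, the DC-like count of 1 became 2 under the stricter gate, the NK cell-like count of 2 became 4 without doublet removal or with at least 10 UMIs, and the T cell-like count of 1 became 0 with the automatic threshold or without doublet removal. The cause was not tested. Size factors moved neutrophil-like ratios by 0.13 (ORIN1001 to vehicle) and -0.10 (docetaxel to vehicle), which put Slfn4 in docetaxel at 0.58, just under 1.5-fold.

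No paired analysis was possible because each group had 1 library and the labels give no replicate numbers. Leaving out a library was not possible either.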
